A study of Arabidopsis thaliana with 6 samples.

Results

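The genes described here are the cytochrome P450 and glutathione transferase (GST) genes among those listed as different between wild-type Arabidopsis thaliana seedlings and a line carrying BIC1-YFP. They were taken by the words cytochrome P450, glutathione S-transferase or glutathione transferase in the short description of each listed gene. That gave 46 genes, of which 3 were left out by name, so that 43 of the 1537 listed genes remained, 31 P450 genes and 12 GST genes. Of the 12, AT5G12110 matches only through a GST-like domain in its description, and RefSeq names its product elongation factor 1-beta, a subunit of the translation machinery. It is kept and marked apart below.

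RNA was sequenced from whole seedlings of ecotype Columbia, 10 days old, grown on half-strength Murashige and Skoog plates in long days, with 3 biological replicates of the wild type (Col-0) and 3 of BIC1-YFP. BIC1 is a small protein that blocks cryptochromes, the receptors of blue light, and the study asks about its part in growth and in the signalling of brassinosteroid hormones. The BIC1-YFP protein is BIC1 joined to yellow fluorescent protein; which promoter drives it, how many independent lines were used and whether seedlings were pooled is nowhere stated in the labels. Levels are normalized units of read abundance as the authors deposited them, and the read depth of the libraries is unknown.

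Cytochrome P450 enzymes are membrane-bound haem proteins that insert an oxygen atom into small molecules. In plants they form a very large family, with members in the synthesis or breakdown of hormones, glucosinolates, phenylpropanoids, cuticle lipids and terpenes and in the detoxification of foreign chemicals. Glutathione transferases join the tripeptide glutathione to reactive compounds, which are then moved to the vacuole; the tau and phi classes are the large plant classes, and many of their genes are known to be induced by herbicides, safeners and other stress.

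BIC1 itself (AT3G52740) stood at 409, 351 and 259.8 units in wild-type replicates 1, 2 and 3 and at 16272, 14597 and 21868 units in BIC1-YFP replicates 1, 2 and 3, in accord with the labels of all 6 libraries. Below, 3 values in a row are likewise replicates 1, 2 and 3. Tissue markers can be checked only in part, because the table holds selected genes alone. Of 7 green shoot markers 4 were listed, at a summed 498355 to 579974 units in the wild type and 354917 to 408606 in BIC1-YFP, with none at 0. Nearly all of that sum is RBCS1A and RBCS3B, which fell (1.46-fold and 1.57-fold, limma, adjusted p = 0.0085 and 0.0057), whereas LHCB3 and LHCA4 rose (2.17-fold and 1.74-fold, limma, adjusted p = 0.0049 and 0.0044). Of 6 root markers the 2 listed, PRP3 and LRX1, summed to 248 to 429 units in the wild type and 164 to 201 in BIC1-YFP, and both fell (limma, adjusted p = 0.023 and 0.031). Of 7 flower and seed markers 2 were listed, summing to 28.1 to 48.9 units in the wild type and 7.02 to 93.5 in BIC1-YFP. The flower gene SEP1 fell 5.03-fold without overlap (limma, adjusted p = 0.0066). The seed storage gene CRA1 was not called (limma, adjusted p = 0.18) and stood apart in BIC1-YFP replicate 2, at 83.6 units against 2.01 and 5.74 in replicates 1 and 3.

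A gene was called when limma, fitted over all 1531 tested genes of the table on log2(units + 1), gave a Benjamini-Hochberg adjusted p under 0.05; "rose" and "fell" are used of called genes alone. All 43 genes passed the filter on low values. Because the authors had already selected every gene in the table as different in these same libraries, 76.6% of the tested genes were called, 37.6% higher and 39.1% lower, and counts of called members are to be read against those shares. Of the 31 P450 genes 27 were called, 12 higher and 15 lower, with a median log2 fold change of -0.63. Of the 12 GST genes 11 were called, 7 higher and 4 lower, with a median of 0.77; without AT5G12110 the split was 6 and 4. The median over all tested genes was 0.56, although 37.6% were called higher and 39.1% lower. No gene with a deposited absolute log2 fold change below 0.59 is listed, so this median does not measure a common shift. The genotypes did not overlap in 26 of the 31 P450 genes and in 12 of the 12 GST genes, against 76% of all tested genes. Calls here and below are from a fit without a term for replicate number. With such a term 31 P450, 12 GST and 1445 of all 1531 tested genes were called.

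The GST genes split by class. Of the 7 listed tau genes (of 28 in the class list) 6 rose and 1 fell, with a median log2 fold change of 1.08. Of the 4 listed phi genes (of 12) 3 fell and 1, GSTF4, was not called, with a median of -1.10. These are small numbers from a selected table and no test was made of the difference between the classes. Of 12 genes in the other classes only DHAR2, a glutathione-dependent dehydroascorbate reductase whose description does not hold the search words, was listed; it rose from 1233, 1201 and 1216 to 1772, 1835 and 1681 units (1.45-fold; limma, adjusted p = 0.015).

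Sequence upstream of 4 GST genes is shown because it holds most of the TGACG and CACGTG words counted in the GST windows below. Each is the 250 bases before the RefSeq gene start in TAIR10.1, 5′ to 3′ on the strand of the gene. Capitals mark TGACG, the core bound by TGA-type bZIP factors, and CACGTG, the G-box bound by PIF and other factors, each on either strand. GSTU7 (chr2:12618900-12619149), GSTU1 (chr2:12632539-12632788) and GSTU22 (chr1:29474004-29474253) rose, and GSTU17 (chr1:3398359-3398608) fell. All 4 lie on the minus strand.
GSTU7: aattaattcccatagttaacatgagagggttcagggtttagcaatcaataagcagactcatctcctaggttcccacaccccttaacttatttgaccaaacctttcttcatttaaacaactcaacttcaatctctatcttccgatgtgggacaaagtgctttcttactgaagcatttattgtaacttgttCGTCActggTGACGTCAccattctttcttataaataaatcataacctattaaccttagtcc
GSTU1: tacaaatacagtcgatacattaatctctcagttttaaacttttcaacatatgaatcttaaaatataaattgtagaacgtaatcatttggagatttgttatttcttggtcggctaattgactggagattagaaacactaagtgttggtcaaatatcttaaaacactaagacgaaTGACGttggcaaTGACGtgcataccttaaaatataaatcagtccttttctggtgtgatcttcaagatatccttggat
GSTU22: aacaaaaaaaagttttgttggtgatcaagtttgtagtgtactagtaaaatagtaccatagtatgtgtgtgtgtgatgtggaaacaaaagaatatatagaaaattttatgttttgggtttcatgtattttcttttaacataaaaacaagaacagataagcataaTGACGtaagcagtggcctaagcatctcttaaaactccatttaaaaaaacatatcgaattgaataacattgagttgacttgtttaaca
GSTU17: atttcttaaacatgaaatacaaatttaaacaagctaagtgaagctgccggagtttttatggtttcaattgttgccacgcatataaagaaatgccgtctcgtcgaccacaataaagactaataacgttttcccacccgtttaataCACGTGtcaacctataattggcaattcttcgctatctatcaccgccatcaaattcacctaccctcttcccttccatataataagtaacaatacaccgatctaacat

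TGACG was found in 4 of the 8 windows of GST genes with a higher mean in BIC1-YFP (GSTU7 with 3 matches, GSTU1 with 2, GSTU22 and GSTU24 with 1 each) and in 0 of the 3 windows used of genes with a lower mean. Shortly after the match, GSTU22 and GSTU24 share the letters gcagtggcctaagca, so their windows are not independent. The same word was in 18.6% of the windows of all 27442 protein-coding genes used and in 21% of those of the listed genes. CACGTG was in 1 of the 3 windows of the lower GST genes, that of GSTU17, and in 0 of the 8 of the higher ones, against 6.48% of all windows. The W-box TTGACC was in 3 of the 8 windows of the higher genes (12.2% of all), and CGTGTG, a word bound by BZR1, in 2 (5.37% of all), GSTU19 and AT5G12110. CGTGCG was in none of the 11 and in 1.57% of all. TGACG and TTGACC cannot lie at the same place, whereas CACGTGTG holds both the G-box and CGTGTG. The 8 windows of the higher genes include that of AT5G12110, and the windows of GSTU24 and GSTU2 reach into the neighbouring gene. A match is a description of letters and not a bound site.

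The tau gene with the highest level was GSTU19 (AT1G78380), an abundant enzyme known from responses to herbicide safeners. It stood at 12360, 14621 and 14026 units in the wild type and at 25414, 27559 and 29466 in BIC1-YFP, so that every BIC1-YFP library lay far above every wild-type library. It rose 2.01-fold (limma log2 fold change 1.01 ± 0.12 SE, adjusted p = 0.0023). Per kilobase of exon, its mean of 12204 units in the wild type and 24535 in BIC1-YFP was the highest of the 43 genes in both genotypes. It made up 61.8% to 69.2% of the summed units of the 12 GST genes in the wild-type libraries and 75.1% to 79.5% in the BIC1-YFP libraries. The 12 genes together summed to 20001 to 21143 units in the wild type and to 33847 to 37048 in BIC1-YFP. Without GSTU19 the sums were 6458 to 7641 and 7582 to 8751, and the genotypes overlapped. All these sums include the elongation factor gene AT5G12110, at a mean of 811 units in the wild type and 1476 in BIC1-YFP.

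GSTU24 (AT1G17170), known for conjugating the explosive trinitrotoluene, stood at 407, 415 and 493 units in the wild type and at 1464, 1576 and 1340.0 in BIC1-YFP. The lowest BIC1-YFP library thus lay well above the highest wild-type library. It rose 3.33-fold (limma log2 fold change 1.74 ± 0.15 SE, adjusted p = 0.0014). GSTU7 (AT2G29420) stood at 956, 965 and 1088 units and at 2108, 2208 and 2039 units, with little spread in either genotype, and rose 2.11-fold (limma, adjusted p = 0.0027). These and GSTU19 are the 3 GST genes that were still called when limma's p-values were adjusted over 21575 tests, the smallest number that the deposited p-values and adjusted p-values imply (adjusted p = 0.020 for GSTU24, 0.038 for GSTU7 and 0.032 for GSTU19). Over those tests 3.27% of the tested genes were called.

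GSTU1 and GSTU2, neighbours of GSTU7 on chromosome 2, rose as well. GSTU1 (AT2G29490) stood at 364, 483 and 484 units in the wild type and at 1309.8, 1104 and 900.0 in BIC1-YFP, without overlap (2.49-fold, limma log2 fold change 1.31 ± 0.20 SE, adjusted p = 0.0050). GSTU2 (AT2G29480) was much weaker, at 19.1, 20.4 and 8.07 units against 61.1, 57.3 and 50.3, also without overlap (3.55-fold, limma log2 fold change 1.86 ± 0.38 SE, adjusted p = 0.011). Their coding sequences are 86% identical to each other, and GSTU2 overlaps AT2G29485 on the other strand over 849 bases, so reads may have been shared.

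GSTU22 (AT1G78340) rose the least of the tau genes, from 169.6, 196 and 157 units to 287, 302 and 247 (1.60-fold, limma log2 fold change 0.68 ± 0.18 SE, adjusted p = 0.020). It was no longer called once wild-type replicate 1 (adjusted p = 0.051) or BIC1-YFP replicate 2 (0.065) was left out. The tau gene that went the other way was GSTU17 (AT1G10370), also called ERD9, described in RefSeq as a negative component of drought and salt stress signalling. It fell from 792, 760 and 648 units to 416, 411 and 238, with replicate 3 lowest in both genotypes and no overlap (2.07-fold, limma log2 fold change -1.09 ± 0.25 SE, adjusted p = 0.015). The listed elongation factor gene AT5G12110 rose from 769, 817 and 847 units to 1356, 1563 and 1510.2 (1.82-fold, limma, adjusted p = 0.0054), and overlaps AT5G12120 on the other strand over 1221 bases.

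Among the phi genes GSTF6 (AT1G02930), known for a part in the synthesis of the defence compound camalexin, had the highest level. It fell from 3951, 2634 and 2546 units to 1262, 1253 and 1037 (2.57-fold, limma log2 fold change -1.34 ± 0.20 SE, adjusted p = 0.0048). Wild-type replicate 1 was the highest, but all 3 wild-type libraries lay above all BIC1-YFP libraries. Its coding sequence is 94.3% identical to that of GSTF7, which is not in the table, so the level may hold reads of both. Per kilobase of exon, GSTF6 was second to GSTU19 in the wild type (2566 units); in BIC1-YFP its mean was 998 units, beside 2388 for GSTU7, 1216 for GSTU24 and 999.8 for GSTU1.

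GSTF5 (AT1G02940) stood at 45.1, 56.3 and 32.9 units in the wild type and at 13.02, 19.1 and 10.2 in BIC1-YFP, and fell 3.17-fold (limma log2 fold change -1.61 ± 0.34 SE, adjusted p = 0.012). GSTF13 (AT3G62760) stood at 57.2, 45.1 and 36.3 units and at 24.0, 30.2 and 20.0, and fell 1.87-fold (limma log2 fold change -0.87 ± 0.29 SE, adjusted p = 0.031). In both genes the genotypes did not overlap, and replicate 3 was the lowest library of each genotype. GSTF13 was called only while both wild-type replicates 1 and 2 and all BIC1-YFP libraries were kept, and not without replicate 3 of both genotypes (limma, adjusted p from 0.054 to 0.094). GSTF4 (AT1G02950) stood at 111, 131 and 118 units and at 133, 227 and 190.8. BIC1-YFP replicate 1 lay just above the highest wild-type library, and the gene was not called (limma log2 fold change 0.58 ± 0.24 SE, adjusted p = 0.058), but was without that library (0.033). It overlaps the non-coding AT1G02952 on the other strand over 1014 bases.

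**Figure D1:**
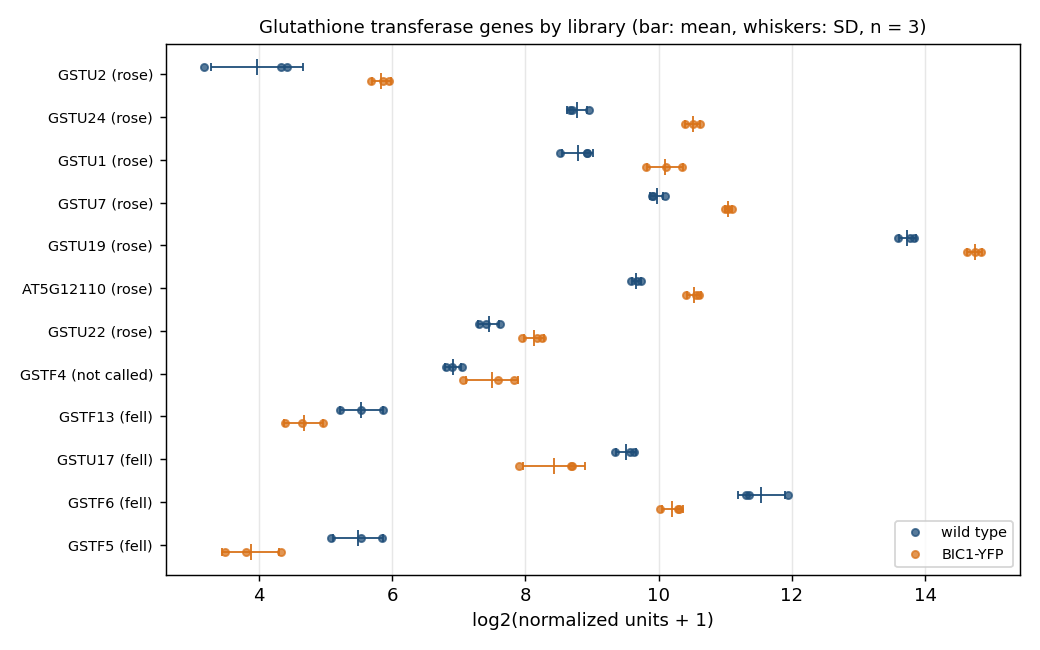
Levels of the 12 GST genes in each library, as log2(normalized units + 1), for the wild type (blue) and BIC1-YFP (orange); points are libraries, bars means and whiskers SD (n = 3). GSTU19 has the highest level in every library, and the 6 tau genes that rose lie in the upper rows with AT5G12110.

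Of the P450 genes 12 had a higher and 19 a lower mean in BIC1-YFP, against 809 and 728 of all listed genes. The P450 changes were mostly smaller: the median absolute log2 fold change was 0.79, against 1.08 for the GST genes and 0.90 for all tested genes. Of the 31 genes, 13 are in 6 of the 7 P450 role lists, and the remaining 18 are in none. No gene of carotenoid or sterol synthesis (of 5) was listed. The genes summed to 13650 to 15383 units in the wild type and to 12581 to 13355 in BIC1-YFP. The P450 calls depended on single libraries, as did those of the whole table. Leaving out wild-type replicate 1, 2 or 3 gave 13, 13 and 25 P450 calls (623, 625 and 1218 of all tested genes). Leaving out BIC1-YFP replicate 1, 2 or 3 gave 17, 10 and 16 (983, 469 and 715 of all). With every library kept, 27 P450 genes and 1173 of all tested genes were called. The GST genes called numbered 9 to 11 in the same fits.

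**Figure D2:**
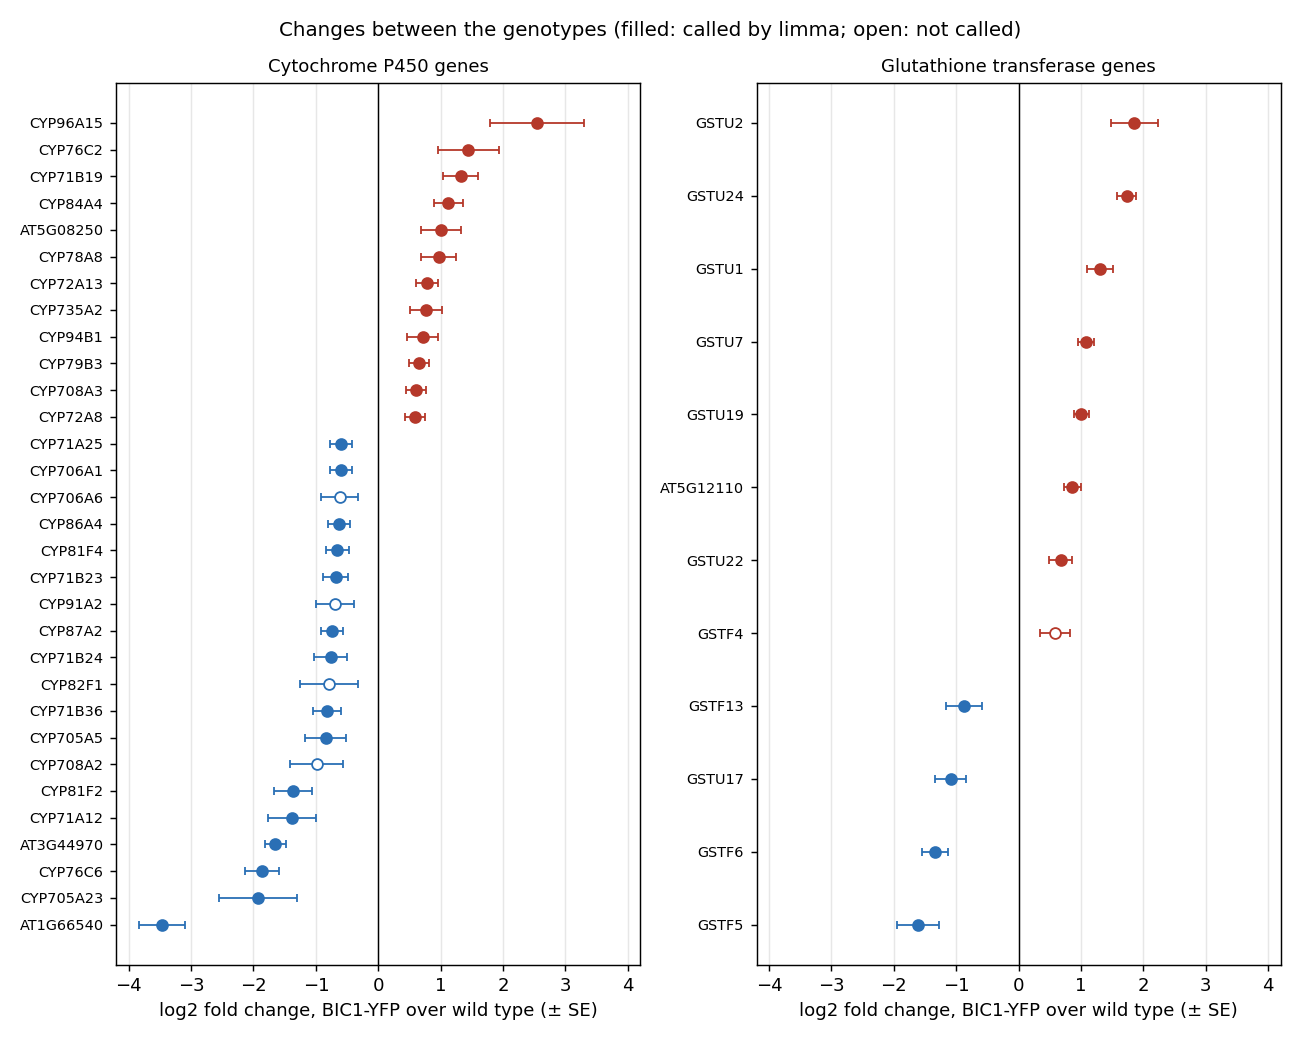
Log2 fold change of each gene, BIC1-YFP over wild type, with its standard error from limma, for P450 genes (left) and GST genes (right); red is higher and blue lower in BIC1-YFP, and open circles were not called. The P450 genes run from -3.46 for AT1G66540 to 2.55 for CYP96A15, and the GST genes from -1.61 for GSTF5 to 1.86 for GSTU2.

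Among the 14 P450 genes of glucosinolate and camalexin synthesis only 5 were listed, 4 of them with a lower mean in BIC1-YFP. From these 5, 1 rose, 3 fell and 1 was not called. Over all tested genes 37.6% were called higher and 39.1% lower. CYP79B3 (AT2G22330), which turns tryptophan into indole-3-acetaldoxime at the entry to the indole glucosinolates, rose from 789.6, 727 and 591 units to 1073, 1137 and 1098 (1.57-fold, limma log2 fold change 0.66 ± 0.16 SE, adjusted p = 0.016). The BIC1-YFP libraries lay close together and above all wild-type libraries, but the call was lost without BIC1-YFP replicate 2 (0.053). CYP81F2 (AT5G57220), which hydroxylates indole glucosinolates in the immune response, fell from 142, 193 and 297 units to 67.1, 71.3 and 96.9 (2.69-fold, limma log2 fold change -1.37 ± 0.31 SE, adjusted p = 0.014). Replicate 3 was its highest library in both genotypes, the genotypes did not overlap, and the call held without each library in turn.

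CYP81F4 (AT4G37410), which acts on indole glucosinolates at another ring position, had the highest level of the P450 genes that fell, at 2911, 2647 and 2035 units against 1795, 1571 and 1423 (1.59-fold, limma log2 fold change -0.65 ± 0.18 SE, adjusted p = 0.021). The genotypes did not overlap. The call was lost without either of wild-type replicates 1 and 2 or BIC1-YFP replicates 2 and 3 (0.051 to 0.060). CYP81F4 lies almost wholly, over 2140 bases, on the strand opposite AT4G37409, itself listed as lower (206, 205 and 157 against 132, 71.3 and 109.99 units), and whether the reads were counted by strand is not given. CYP91A2 (AT4G37430), named CYP81F1 among its RefSeq synonyms, stood at 131, 95.3 and 104 units against 96.1, 66.9 and 46.5. Its genotypes overlapped, and it was not called (limma, adjusted p = 0.065), but was without BIC1-YFP replicate 1 (0.036). CYP91A2 overlaps the non-coding AT4G37432, which is not listed, on the other strand over 1820 bases.

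CYP71A12 (AT2G30750), of the camalexin branch, stood at 57.2, 44.3 and 30.8 units in the wild type and at 20.0, 9.82 and 20.0 in BIC1-YFP. It fell 2.66-fold (limma log2 fold change -1.38 ± 0.38 SE, adjusted p = 0.022), without overlap. The call was lost on leaving out BIC1-YFP replicate 2 or either of wild-type replicates 1 and 2 (0.055 to 0.061), and its coding sequence is 90.4% identical to that of CYP71A13, which is not in the table.

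Of 24 P450 genes of hormone synthesis and inactivation 2 were listed, and both rose. None of the 8 brassinosteroid genes in that list was in the table. CYP735A2 (AT1G67110), which makes trans-zeatin type cytokinins, stood at 54.2, 54.5 and 80.2 units in the wild type and at 129, 91.0 and 100.9 in BIC1-YFP (1.70-fold, limma log2 fold change 0.76 ± 0.25 SE, adjusted p = 0.031). CYP94B1 (AT5G63450), which oxidizes and so inactivates the jasmonate hormone, stood at 40.1, 62.0 and 39.8 units and at 78.1, 79.2 and 72.3 (1.62-fold, limma log2 fold change 0.71 ± 0.25 SE, adjusted p = 0.036). The genotypes did not overlap in either gene, but both calls were weak. That of CYP735A2 was lost without wild-type replicate 1 or 2 or any BIC1-YFP library (0.060 to 0.086). That of CYP94B1 was lost without any library except wild-type replicate 2, without replicate 3 of both genotypes, and with median-ratio scaling (0.055 to 0.103).

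The phenylpropanoid list of 4 genes had 1 member in the table, CYP84A4 (AT5G04330), a relative of the lignin gene FAH1 known for the synthesis of arabidopyrones. It rose from 31.1, 40.2 and 44.1 units to 92.1, 80.1 and 81.0 (2.19-fold, limma log2 fold change 1.12 ± 0.23 SE, adjusted p = 0.011), without overlap, and its call held without each library in turn. Of the 5 CYP78A genes, known for promoting organ growth, CYP78A8 (AT1G01190) was listed. It rose from 54.2, 33.8 and 59.5 units to 103, 78.1 and 103.9 (1.93-fold, limma log2 fold change 0.97 ± 0.28 SE, adjusted p = 0.023). Its genotypes did not overlap, but the call was lost without wild-type replicate 2 or any BIC1-YFP library (0.050 to 0.063).

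Of 11 P450 genes of cutin, suberin, wax and fatty acid oxidation 2 were listed, and they differed in direction. CYP86A4 (AT1G01600), a fatty acid hydroxylase of cutin synthesis, fell from 167, 159 and 177 units to 106, 118 and 100.1 (1.55-fold, limma log2 fold change -0.63 ± 0.18 SE, adjusted p = 0.022). The libraries of each genotype lay close together, yet the call was lost on leaving out either of wild-type replicates 1 and 2, either of BIC1-YFP replicates 2 and 3, or replicate 3 of both genotypes (0.052 to 0.073). CYP96A15 (AT1G57750), the mid-chain alkane hydroxylase MAH1 of stem wax, was listed at 0.0024, 0 and 0.066 units in the wild type and stood at 12.0, 6.55 and 1.17 in BIC1-YFP. BIC1-YFP replicate 3 was close to the wild type, and with so little in the wild type no fold is given. Its log2 fold change, 2.55 with a pseudocount of 1, was 3.34 with 0.5 and 1.09 with 5. Its call (limma, adjusted p = 0.024) was lost without either of wild-type replicates 1 and 2 or BIC1-YFP replicates 1 and 2 (0.057 to 0.066).

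The triterpene list of 4 genes had 2 members in the table, which act in turn on thalianol, a triterpene of roots, and lie next to each other on chromosome 5. CYP708A2 (AT5G48000), the thalianol hydroxylase, stood at 699, 808 and 365 units in the wild type and at 424, 363 and 171 in BIC1-YFP. CYP705A5 (AT5G47990), the thalian-diol desaturase, stood at 898, 909.9 and 496 units and at 509, 490.3 and 281. In both genes replicate 3 was the lowest library of each genotype and wild-type replicate 3 overlapped the BIC1-YFP libraries. CYP705A5 was called at the edge (limma log2 fold change -0.84 ± 0.33 SE, adjusted p = 0.048), and the call was lost without any library other than wild-type replicate 3 and in limma without a trend (0.054 to 0.13). CYP708A2 was not called (limma log2 fold change -0.99 ± 0.42 SE, adjusted p = 0.064), but was without wild-type replicate 3 (0.027) or without replicate 3 of both genotypes (0.016). The root markers PRP3 and LRX1 were lower in BIC1-YFP too, as given above; their part in these values was not tested. In whole seedlings fewer cells of a type and less RNA per cell cannot be told apart.

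Outside the role lists, 2 falls stood out among the P450 genes by their adjusted p. AT1G66540 stood at 108, 96.8 and 80.9 units in the wild type and at 10.0, 4.23 and 10.3 in BIC1-YFP. It fell 11.6-fold (limma log2 fold change -3.46 ± 0.37 SE, adjusted p = 0.0020), with a wide gap between the genotypes. RefSeq gives it no family number, and its closest coding sequence is that of CYP81D3, at 81.9% identity. AT3G44970, whose closest coding sequence is CYP708A2 at 72.8%, stood at 1402, 1297 and 1228 units and at 348, 439.6 and 466. It fell 3.13-fold (limma log2 fold change -1.65 ± 0.17 SE, adjusted p = 0.0017). These were the 2 P450 genes still called over 21575 tests (adjusted p = 0.029 and 0.025), and both held without each library in turn.

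CYP76C6 (AT1G33720), of a subfamily known for oxidizing monoterpene alcohols, fell from 66.2, 78.7 and 81.9 units to 26.04, 15.3 and 20.1 (3.69-fold, limma log2 fold change -1.86 ± 0.27 SE, adjusted p = 0.0044). CYP76C2 (AT2G45570), of the same subfamily, rose from 6.02, 3.41 and 3.46 units to 12.0, 23.4 and 7.75 (3.35-fold, limma log2 fold change 1.44 ± 0.49 SE, adjusted p = 0.033). The genotypes did not overlap in either gene; CYP76C6 held its call without each library, whereas CYP76C2 lost it without any except BIC1-YFP replicate 3 (0.051 to 0.0899). The aligned 71.6% of the CYP76C6 coding sequence is 92.2% identical to CYP76C5, which is not in the table.

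The 6 listed genes of the CYP71 family were all called, 5 lower and 1 higher, where 76.6% of all tested genes were called. CYP71B19 (AT3G26170) rose from 38.1, 32.0 and 49.7 units to 81.1, 93.0 and 131.0 (2.55-fold, limma log2 fold change 1.32 ± 0.28 SE, adjusted p = 0.012), and held its call without each library. Its coding sequence is 96.2% identical to that of the neighbouring CYP71B20, which is not in the table, so its level may hold reads of both. CYP71B36 (AT3G26320) fell from 102.3, 71.9 and 98.6 units to 48.1, 51.3 and 51.8 (1.80-fold, limma, adjusted p = 0.021), and CYP71B24 (AT3G26230) from 128, 139.6 and 108 to 79.1, 53.0 and 92.3 (1.67-fold, limma, adjusted p = 0.034). CYP71B23 (AT3G26210) fell from 192 ± 19.6 to 119.5 ± 17.8 units and CYP71A25 (AT3G48280) from 250.2 ± 32.6 to 164 ± 13.2 (SD, n = 3; limma, adjusted p = 0.023 and 0.026). None of these 6, CYP71A12 included, had overlapping genotypes, as was the case in 76% of all tested genes.

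The calls of the lower CYP71 genes were not stable, and those of the whole table depended on single libraries too, as given above. CYP71B36 lost its call on leaving out BIC1-YFP replicate 2, wild-type replicate 1 or replicate 3 of both genotypes (limma, adjusted p from 0.057 to 0.058). CYP71B24 lost it without either of wild-type replicates 1 and 2 or BIC1-YFP replicates 1 and 2 (0.055 to 0.096). CYP71B23 lost it without replicate 1 of the wild type, replicate 1 or 3 of BIC1-YFP, or replicate 3 of both genotypes (0.055 to 0.066). CYP71A25 lost it without wild-type replicate 1 or 2 or any BIC1-YFP library (0.053 to 0.074).

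Among the rises outside the role lists, CYP72A13 (AT3G14660) had the highest level, at 2071, 1947 and 2666 units in the wild type and 3754, 3367 and 4337 in BIC1-YFP. It rose 1.71-fold (limma log2 fold change 0.78 ± 0.17 SE, adjusted p = 0.013), without overlap, with replicate 3 highest in both genotypes, and held its call without each library. Per kilobase of exon it had the highest mean of the P450 genes in BIC1-YFP (1519 units), ahead of CYP81F4 (927), whereas in the wild type CYP81F4 (1470 units) was ahead of CYP72A13 (886). Its neighbour CYP72A8 (AT3G14620) rose from 975 ± 77.3 to 1471 ± 224 units (SD, n = 3; 1.51-fold, limma, adjusted p = 0.021), with a call lost without either of wild-type replicates 1 and 2 or BIC1-YFP replicates 2 and 3 (0.052 to 0.058). The coding sequence of CYP72A13 is 92.8% identical to that of CYP72A11 between them, which is not in the table.

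AT5G08250, whose closest coding sequence is that of the suberin gene CYP86B1 at 78.8%, rose from 31.1, 23.1 and 22.2 units to 38.1, 46.9 and 76.2 (2.11-fold, limma log2 fold change 1.00 ± 0.32 SE, adjusted p = 0.030). BIC1-YFP replicate 3 was the highest, and the call was lost on leaving out either of replicates 2 and 3 of the wild type, either of replicates 2 and 3 of BIC1-YFP, or replicate 3 of both genotypes (0.057 to 0.13). CYP708A3 (AT1G78490) rose from 199.9 ± 12.1 to 305 ± 9.1 units (SD, n = 3; 1.52-fold, limma, adjusted p = 0.019), with a call lost without BIC1-YFP replicate 2 (0.059).

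The remaining P450 genes were lower in BIC1-YFP. CYP87A2 (AT1G12740) fell from 267, 259.0 and 297 units to 161, 185 and 145 (1.67-fold, limma log2 fold change -0.74 ± 0.18 SE, adjusted p = 0.016), without overlap, and held its call without each library. CYP706A1 (AT4G22690) fell from 1787 ± 278 to 1181 ± 193 units (SD, n = 3; limma, adjusted p = 0.026), with a call lost without either of wild-type replicates 2 and 3 or BIC1-YFP replicates 1 and 2 (0.051 to 0.075). CYP705A23 (AT3G20140) was weak, at 7.34 ± 1.81 and 1.58 ± 1.85 units (SD, n = 3), and its fall (limma, adjusted p = 0.030) was lost without any library except BIC1-YFP replicate 2 and without replicate 3 of both genotypes (0.058 to 0.11).

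Neither CYP706A6 (AT4G12320), at 1847, 1309 and 843 units against 953, 884 and 669, nor CYP82F1 (AT2G25160), at 171, 198 and 77.2 against 95.1, 115 and 45.4, was called (limma, adjusted p = 0.087 and 0.14). In both genes replicate 3 was the lowest library of each genotype and the genotypes overlapped. Without wild-type replicate 3 both were called (0.022 and 0.037), as without replicate 3 of both genotypes (0.028 and 0.034). The coding sequences of CYP706A1 and CYP706A6 are 97.3% and 90.5% identical to those of CYP706A2 and CYP706A5, which are not in the table.

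**Figure D3:**
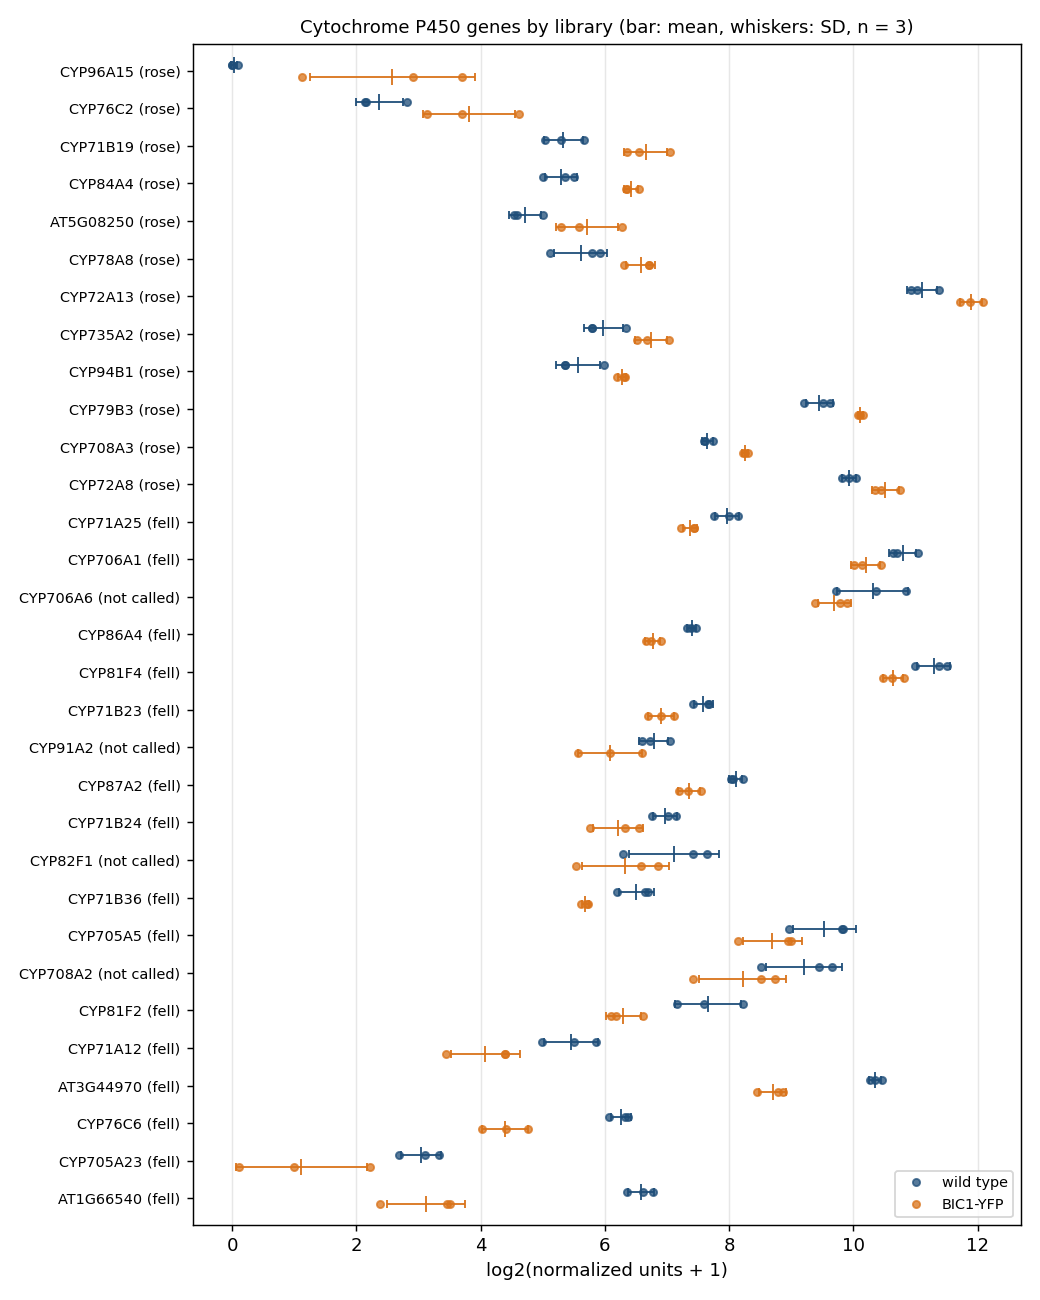
Levels of the 31 P450 genes in each library, as log2(normalized units + 1), for the wild type (blue) and BIC1-YFP (orange); points are libraries, bars means and whiskers SD (n = 3), and genes are ordered by log2 fold change. The genotypes are farthest apart in AT1G66540 among the genes that fell, and the libraries of CYP82F1, CYP705A5, CYP708A2, CYP706A6 and CYP91A2 overlap.

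Some members lie near each other in the genome, in most groups with other genes between them. With members of a family within 20 kb of each other counted as neighbours, 4 groups of P450 genes and 3 of GST genes were found in the RefSeq annotation of TAIR10.1. On chromosome 1 GSTF6, GSTF5 and GSTF4 stand in a row within 5.38 kb (chr1:661088-666471), with GSTF6 and GSTF5 lower and GSTF4 at a higher mean. The tau genes were higher in both of their groups, GSTU22 and GSTU19 within 15.2 kb (chr1:29472845-29488007) and GSTU7, GSTU2 and GSTU1 within 14.6 kb (chr2:12617936-12632538). Between them lie GSTU21 and GSTU20 in the first group and GSTU6, GSTU5, GSTU4 and GSTU3 in the second, none of which is in the table. GSTU7 overlaps the non-coding AT2G08340 on the other strand over 636 bases; that gene was listed too, at 39.1, 51.9 and 59.5 against 128, 91.1 and 63.8 units.

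Among the P450 genes, CYP72A8 and CYP72A13 (chr3:4914789-4927607) both rose, with CYP72A9, CYP72A10 and CYP72A11 between them not in the table. CYP81F4 and CYP91A2 (chr4:17590772-17598958) and CYP705A5 and CYP708A2 (chr5:19434758-19447866) were lower in BIC1-YFP, with CYP91A2 and CYP708A2 not called. The CYP71B group (chr3:9573263-9599988) was mixed: CYP71B19 rose, while CYP71B23 and CYP71B24 at its other end fell. Neighbouring copies can share reads, and whether they did was not tested. Where a listed neighbour was the closest coding sequence, the aligned identity was 86% for GSTU2 and GSTU1 and 79.9% for GSTU22 and GSTU19. It was 75.9% for GSTF5 and GSTF4 and 67.3% for CYP72A8 and CYP72A13. Of the 43 members 7 have a closest relative at 90% identity or more over at least 50% of their coding sequence (GSTF6, CYP76C6, CYP71A12, CYP72A13, CYP71B19, CYP706A6 and CYP706A1), and in all 7 that relative is not in the table.

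**Figure D4:**
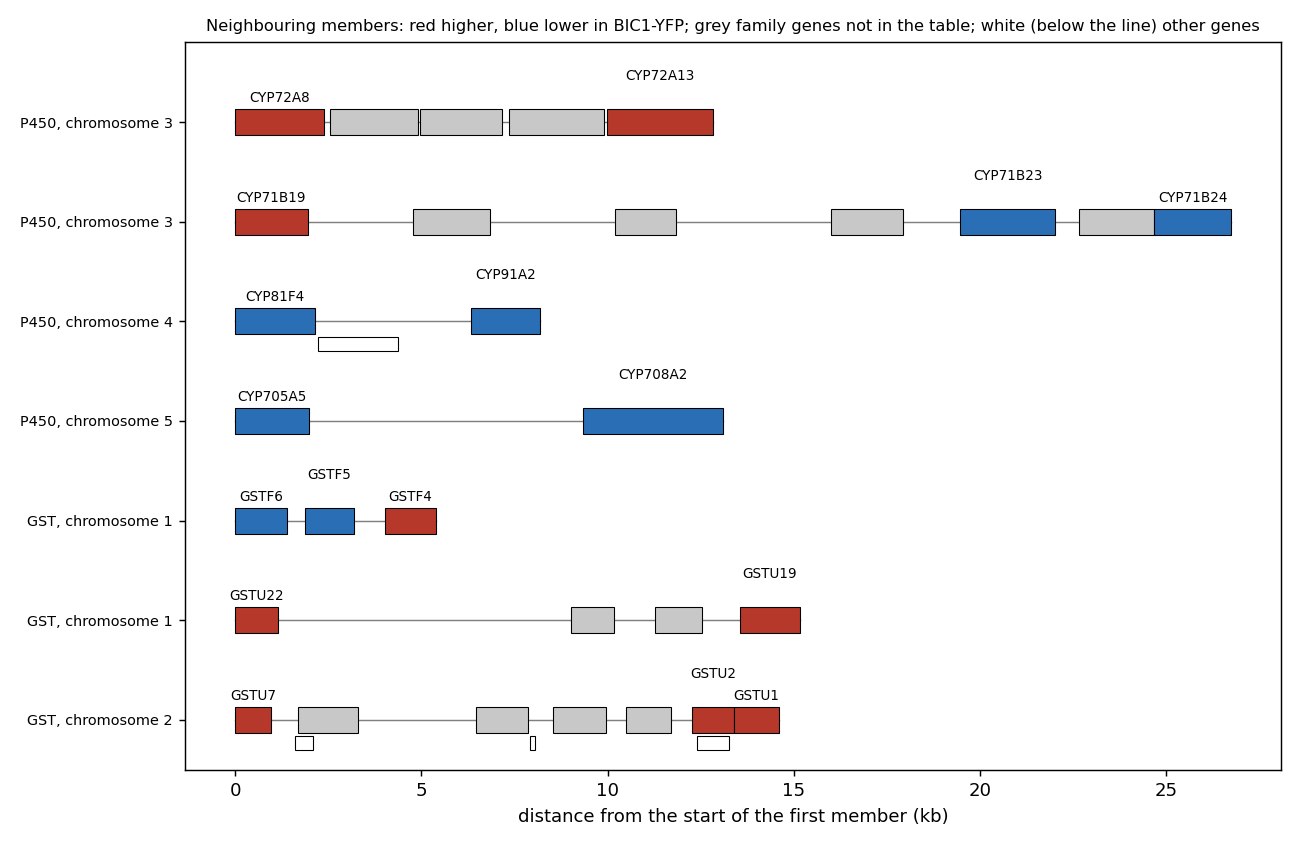
Groups of members of a family within 20 kb of each other, drawn to scale by distance from the start of the first member in kilobases; red boxes are members with a higher and blue boxes with a lower mean in BIC1-YFP, grey boxes genes of the family that are not in the table, and white boxes below the line other protein-coding genes that start within the group. Colours agree within 5 of the 7 groups and differ in the CYP71B group and in the GSTF6, GSTF5 and GSTF4 row.

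The same words were counted in the upstream windows of the P450 genes. TGACG was in 1 of the 12 windows of genes with a higher mean (CYP94B1) and in 3 of the 19 with a lower mean (CYP71B23, CYP81F4 and CYP705A5), which is 8.33% and 15.8% against 18.6% of all windows. CGTGTG was in 1 of the 12 (8.33%) and 3 of the 19 (15.8%), against 5.37% of all windows. TTGACC was in 1 of the 12 (8.33%) and 4 of the 19 (21.05%), against 12.2% of all. CACGTG was in 0 of the 12 and 1 of the 19 (5.26%), against 6.48% of all, and CGTGCG in none. With so few windows, single genes weigh heavily on each share. The windows of CYP72A8, CYP72A13, CYP705A23 and CYP81F4 reach into another gene. The CGTGTG of the higher genes is that of CYP72A13. In CYP705A23 a single CACGTGTG gives both the only G-box and 1 of the 3 CGTGTG matches of the lower genes.

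Genes that work with these enzymes were looked up as well. None of the 10 genes for P450 reductases, glutathione synthesis and recycling and the vacuolar transport of conjugates was in the table. Of 13 further genes known to be induced by foreign chemicals 5 were listed, all with a higher mean in BIC1-YFP, and 4 rose. Of all 1537 listed genes 809 had a higher mean, and 37.6% of the tested genes were called higher. The 13 genes were chosen with earlier results of these data known. The oxophytodienoate reductase gene OPR1 (AT1G76680) rose from 3074, 3379 and 4788 units to 7130, 5757 and 6598 (1.73-fold, limma, adjusted p = 0.015), and OPR2 (AT1G76690) from 603, 621 and 636 to 988, 960.0 and 936 (1.55-fold, 0.012). The glucosyltransferase genes UGT73B4 (AT2G15490) and UGT74E2 (AT1G05680) rose 1.64-fold and 6.25-fold (limma, adjusted p = 0.019 and 0.0026). DTX1 (AT2G04040), a transporter of toxic compounds, at 194, 191 and 268 against 272, 288 and 451 units, was not called (limma, adjusted p = 0.060). No genotype overlap was seen in these 5 genes, as in 76% of all tested genes, but BIC1-YFP replicate 1 of DTX1 lay close to wild-type replicate 3.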

How the data were processed

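RNA was sequenced from 3 wild-type and 3 BIC1-YFP libraries. TAIR10 and Cufflinks are named without versions in the submitters' processing notes and without an aligner, counter, strand setting, scaling or test. For 1537 genes the authors deposited a normalized signal of read abundance per library, its mean per genotype, p-values with and without adjustment and a log2 fold change. They had selected these genes, since in the authors' deposited table no adjusted p-value is above 0.0499 and no absolute log2 fold change is below 0.59. Low values are near whole numbers in 2 of the 6 libraries (95.9% and 100% within 0.05) and not in the others (6.09% to 17.4%), so the values are neither raw counts nor per length, and the depth is unknown.

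Genes at 1 unit or more in at least 3 libraries were kept (1531). On log2(value + 1) limma 3.58.1 (R 4.3.3) was run with a variance trend and no covariate, and p-values were adjusted over all 1531 genes. The procedure was also run on simulated counts with a minority of genes raised, none lowered and no replicate effect. That setting differs from this selected table, so it does not check the calls made here. The same genes were tested when a library was left out. Folds are ratios of mean units. The authors' selection from these libraries makes the adjustment lenient, and a call is not independent evidence. Gene IDs were matched to RefSeq (TAIR10.1; 43 of 43 members); 1 upstream window is not reported here and was left out of the word counts; the nearest coding sequences were found with blastn 2.17.0. Members, gene lists and words were chosen with earlier results of these data known. Values in every library are given for each GST gene, each P450 gene in a role list, and, among called P450 genes without overlap and with a mean of at least 10 units in the higher genotype, the 8 largest rises and 8 largest falls; the extra values for CYP706A6 and CYP82F1 were added after they were seen. The labels call the libraries biological replicates.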

Additional observations from a re-analysis of the deposited data

How the results depend on the processing

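No member changed direction in any of the 16 alternatives, of which leaving out replicate 3 of both genotypes was chosen after seeing the data. Both pseudocounts, both filters, median-ratio scaling and limma without a trend left 26 or 27 P450 and 11 GST calls. In those fits 1124 to 1174 listed genes were called, and the stricter filter left out CYP96A15. Adjusted over 21575 tests, limma called 50 listed genes, 2 P450 genes (0 higher, 2 lower) and 3 GST genes (3 higher, 0 lower). At an unadjusted p under 0.05, limma gave 12 higher and 15 lower P450 genes and 8 higher and 4 lower GST genes. Over all 1531 tested genes, 1244 had an unadjusted limma p under 0.05. A log2 fold change of at least 1 left 507 listed genes and 11 P450 genes (5 higher, 6 lower), by construction. Leaving out 1 library gave 469 to 1218 listed genes, 10 to 25 P450 genes (3 to 9 higher, 6 to 16 lower) and 9 to 11 GST genes; why the libraries differ in this was not tested. Without replicate 3 of both genotypes 24 P450 genes, 10 GST genes and 999 of all 1531 tested genes were called. Deviations from the genotype means correlated between same-numbered libraries at 0.41, 0.04 and 0.43 for replicates 1, 2 and 3 over the listed genes. Wild-type replicate 1 and BIC1-YFP replicate 3 correlated at -0.43, and wild-type replicate 3 and BIC1-YFP replicate 1 at -0.38. BIC1-YFP replicate 2 correlated little with wild-type replicates 1, 2 and 3 (0.089, 0.042 and -0.12). The labels state no pairing, so the main fit has no replicate term, although replicates 1 and 3 varied together by number. With the replicate block 1445 listed, 31 P450 and 12 GST genes were called, among them the 5 members not called in the main fit.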

Other observations

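The deposited log2 fold changes of the members fall in 2 sets when divided by the log2 ratio of the deposited means. For 18 of the 43 members (892 of the 1537 listed genes) that quotient lies between 1.23 and 1.55 over the listed genes, with a median of 1.44, and for the other 25 (645 listed genes) it lies between 0.094 and 1.02, with a median of 0.81. In the authors' deposited table GSTU2 has a log2 fold change of 1.04, where the ratio of the means gives 1.83, and GSTF5 has -0.88, where it gives -1.67. The reverse holds for CYP72A8, deposited at 0.86 with a ratio of means of 0.59, and for CYP708A2, deposited at -1.39 with -0.97. A ranking of the P450 and GST genes by the deposited column therefore differs from one by the library values, and the cause was not tested.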
